A study of Mus musculus with 3 samples.

Results

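The cells described here are blood natural killer (NK) cells of mice with at least 1 counted transcript of Cd27, the receptor that marks less mature NK cells. They were chosen from raw counts of unique molecular identifiers (UMIs), each of which stands for 1 captured transcript. Cells were kept from 500 UMIs and 200 genes upwards if no more than 10% of their UMIs were mitochondrial. An NK-gated cell had at least 2 UMIs of Ncr1, Klrb1c and Klra8 together, under 5% of its UMIs from S100a8 and S100a9, under 3 UMIs of the B cell genes Cd79a, Cd79b and Ms4a1, and under 2 UMIs of the T cell genes Cd3d, Cd3e, Cd3g and Trac. Of 29754 kept cells, 1753 were NK-gated and 298 of these held Cd27, with 82 in the HDCA+CLP library, 160 in the CLP library and 56 in the Sham library. The other 1455 NK-gated cells, without a Cd27 UMI, are called CD27- here.

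Blood of C57BL/6J mice, labelled as peripheral blood mononuclear cells, was sequenced as 3 droplet libraries labelled 12 h, 1 for each group. In the HDCA+CLP group, mice received HDCA, read here as the bile acid hyodeoxycholic acid, and CLP, taken to mean caecal ligation and puncture, in which a surgical injury of the gut causes sepsis. The CLP group received CLP and CMC, read as the vehicle carboxymethylcellulose, and the Sham group is labelled with sham surgery alone. CMC and surgery therefore cannot be told apart in CLP against Sham. The labels name neither the number of animals in a library nor a sort of the cells.

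NK cells kill infected or altered cells with perforin and granzymes and release interferon-gamma and chemokines. In mice they mature from CD27+ cells with little CD11b (the product of Itgam) through cells with both proteins to CD27- CD11b+ cells. Maturation is driven by the transcription factors T-bet, Zeb2 and Blimp1, brings the egress receptor S1pr5 and the surface receptors Klrg1 and Cx3cr1, and goes with loss of proliferative capacity. CD27+ cells are known for Tcf7, Emb, Ltb, Cxcr3 and Il7r.

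There was 1 library for each group, so differences between libraries have no replicate check and no test. Levels are UMIs summed over the cells of a library and scaled to counts per 1e6 UMIs (CPM), and brackets hold exact 95% intervals that cover counting error only. Total depth was 95178381 UMIs in the HDCA+CLP library, 87031721 in CLP and 42427093 in Sham, and the CD27+ cells contributed 478768, 1270872 and 304234 UMIs in that order of libraries. The median CD27+ cell held 5774 UMIs in HDCA+CLP, 6764 in CLP and 5186.5 in Sham, each above the median CD27- cell of its library (4551, 5194 and 4337 UMIs).

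NK cell transcripts were present in the CD27+ cells of each library. Of the genes of the rule, Ncr1 had a UMI in 61.0% of these cells in HDCA+CLP, 81.9% in CLP and 96.4% in Sham. Klrb1c was found in 97.6%, 96.25% and 100% and Klra8 in 51.2%, 55% and 60.7%, in the same order. All 13 NK cell markers outside the rule, among them Nkg7, Eomes, Il2rb and Prf1, had UMIs in the CD27+ cells. Together they made up 68219 CPM in HDCA+CLP, 56951 CPM in CLP and 44344 CPM in Sham. Gzma, at 24749, 20284 and 9493 CPM, and Ccl5, at 29875, 24388 and 19636 CPM, supplied most of each sum. The order of the sums therefore does not rank the libraries by NK label. ILC1 markers summed to 56.4, 73.2 and 115 CPM in the same order, and all 4 basophil markers were at 0. Of the neutrophil markers, 8 of 8, 8 of 8 and 2 of 8 had UMIs, with sums of 823, 467 and 6.57 CPM. Transcripts of S100a8, a granulocyte gene, stood at 1706, 1105 and 23.0 CPM, against 160673, 172725 and 115748 CPM in the gated neutrophils. The part of such free or carried RNA in the results was not tested, and genes picked by size of change had to reach at least 20% of their level in the highest of the neutrophil, B, T and monocyte gates. T cell markers summed to 741, 792 and 680 CPM, and 9, 28 and 9 CD27+ cells held the 1 T cell UMI that the rule allows. Monocyte markers summed to 50.1, 206 and 59.2 CPM, B cell markers to 37.6, 49.6 and 210 CPM, dendritic cell markers to 85.6, 84.2 and 42.7 CPM, platelet markers to 4.18, 1.57 and 49.3 CPM and erythroid markers to 4.18, 1.57 and 6.57 CPM. No doublet was called among the CD27+ cells, which does not show that none was present. The deepest CD27+ cell of CLP, with 47017 UMIs, held 163 Lyz2 UMIs, of 262 UMIs in the monocyte sum of CLP, and no Ncr1 UMI. The libraries shared 17 to 34 cell barcodes pairwise, and none of these was a CD27+ cell in both libraries of a pair.

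The CD27+ gate lies close to the detection limit. Exactly 1 Cd27 UMI was found in 68 of 82 cells of HDCA+CLP, 127 of 160 of CLP and 36 of 56 of Sham, and cells just outside the NK gate, with 1 NK UMI and a Cd27 UMI, numbered 5, 4 and 3. CD27+ cells made up 16.5% [13.4, 20.1] of NK-gated cells in HDCA+CLP, 16.1% [13.9, 18.6] in CLP and 21.1% [16.3, 26.5] in Sham, and these intervals overlap. Gated neutrophils, which are not known to carry Cd27, held a Cd27 UMI in 2.29%, 2.11% and 5.86% of cells, at median depths of 8165, 8779 and 4327.5 UMIs, while gated T cells, a population known to use CD27, held it in 27.0%, 25.0% and 62.6%. After each cell was thinned to 2000 UMIs, which left out shallower cells, the CD27+ share was 6.48% [4.15, 9.56] in HDCA+CLP, 5.39% [3.89, 7.24] in CLP and 13.7% [9.68, 18.6] in Sham. At equal depth the share was thus lower in both CLP libraries than in Sham, with intervals that do not overlap. The limits of all gates were applied anew to the thinned counts, so cells could enter or leave the NK gate. Sham held 210 CD27- cells before and 214 after thinning. The part of T or B cells that entered the thinned NK gate was not tested. Over all NK-gated cells, Cd27 itself stood at 37.5, 33.3 and 65.4 CPM, and after thinning at 33.8, 27.6 and 82.7 CPM. Of thinned cells, 13.6%, 12.0% and 28.6% of gated T cells and 1.35%, 0.922% and 4.07% of gated B cells held Cd27. For gated neutrophils the values were 0.454%, 0.363% and 2.04%, and for gated monocytes 0.373%, 0.146% and 1.36%. Sham was highest in each gate, so its higher thinned share was not particular to NK-gated cells.

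Among kept cells outside the neutrophil gate, CD27+ NK-gated cells were 3.11% [2.48, 3.85] in HDCA+CLP, 2.89% [2.47, 3.37] in CLP and 0.844% [0.638, 1.09] in Sham. Thinned to 2000 UMIs, they were 0.938% [0.596, 1.40] in HDCA+CLP, 0.782% [0.561, 1.06] in CLP and 0.524% [0.363, 0.731] in Sham, so CLP over Sham was 1.49-fold, against 3.43-fold at full depth, and the thinned intervals overlap. Over all kept cells the shares were 0.682%, 1.48% and 0.813%, a different order, with 9386 gated neutrophils among the kept cells of HDCA+CLP, 5313 in CLP and 256 in Sham. Gated B cells numbered 276, 289 and 2746, so each share moves with the other cells in the denominator, and a higher share does not show more cells.

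**Figure D1:**
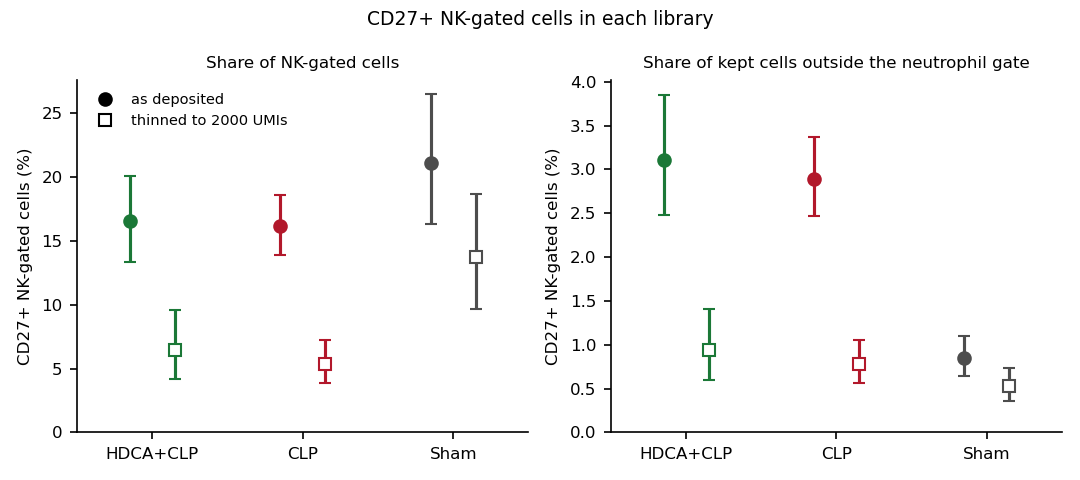
CD27+ NK-gated cells of each library, as a percentage of NK-gated cells (left) and of kept cells outside the neutrophil gate (right); filled circles use the deposited counts, open squares cells thinned to 2000 UMIs, and bars are exact 95% intervals for counting error. Thinned, the Sham share of NK-gated cells (13.7%) lies above those of HDCA+CLP (6.48%) and CLP (5.39%), and outside the neutrophil gate Sham lies lowest, with thinned intervals that overlap.

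Against CD27- cells of the same libraries, CD27+ cells had more Cd7 and less Zeb2 and Ccl4, while most other known maturation genes did not pass the test. This comparison has 3 libraries as replicates and was tested with edgeR's quasi-likelihood test on 6 UMI sums, with the library as a block and Benjamini-Hochberg adjustment. Of 7340 genes tested, 1 was called higher (0.0136%) and 4 lower (0.0545%) at an adjusted p under 0.05, while 301 were higher and 206 lower at an unadjusted p under 0.05. The genes of the rule were left out. CD27+ cells were deeper than CD27- cells in each library, and the part of depth in these calls was not tested beyond thinning.

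Cd7, which encodes a surface receptor of early lymphoid cells, was the gene called higher. It stood at 132 CPM in CD27+ against 76.9 CPM in CD27- cells of HDCA+CLP, 179 against 59.3 CPM in CLP and 312 against 175 CPM in Sham (log2 fold change 1.21, SE 0.14, edgeR adjusted p = 0.00015). CD27+ cells were above CD27- cells in each of the 3 libraries. Thinned to 2000 UMIs, Cd7 had a log2 fold change of 0.62 (edgeR adjusted p = 0.96). Zeb2, which encodes a repressor needed for terminal NK cell maturation, fell. Its values were 73.1 against 114 CPM in HDCA+CLP, 59.0 against 117 CPM in CLP and 283 against 495 CPM in Sham (log2 fold change -0.77, SE 0.13, edgeR adjusted p = 0.0097). In cells thinned to 2000 UMIs and gated anew, the log2 fold change of Zeb2 was 0.019. Ccl4, a chemokine of activated NK cells, was lower by a similar size. It stood at 357 against 713 CPM, 585 against 996 CPM and 171 against 406 CPM in the same order of libraries (log2 fold change -0.89, SE 0.10, edgeR adjusted p = 0.00014), and the CD27+ value was the lower of each pair. Ccl4 was the call that thinning shared, with a log2 fold change of -0.94.

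The other genes called lower, Saa3 and Cd74, are named because the calls are so few. Saa3, an acute-phase gene, had 294 CPM in CD27+ and 886 CPM in CD27- cells of CLP but 3.29 and 1.05 CPM in Sham, so its direction differed between libraries, and its CLP level was 0.966% of that in the highest other gate. Without called doublets, of which CD27- cells held 2 in HDCA+CLP, 11 in CLP and 1 in Sham, the log2 fold change of Saa3 was 1.42. Cd74, the invariant chain of antigen presentation, was lower in each library (26.8 against 75.9 CPM in CLP), at 0.482% or less of the highest other gate. Leaving out cells with 5 or more UMIs of Lyz2, Csf1r, Cd68 and Ms4a6c, an alternative chosen after seeing the data, gave Cd74 a log2 fold change of 0.17 (edgeR adjusted p = 0.96).

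Of the 14 less mature NK cell genes measured, 11 had a positive fold change, 8 were higher in all 3 libraries and 1 (Cd7) was called, with a median log2 fold change of 0.53 against 0.01 over all genes. Of the 16 mature NK cell genes, 15 had a negative fold change, 13 were lower in all 3 libraries and 1 (Zeb2) was called, with a median of -0.27. Several members narrowly missed the threshold. Emb, which encodes the adhesion protein embigin, stood at 416 against 271 CPM in HDCA+CLP, 234 against 195 CPM in CLP and 332 against 82.2 CPM in Sham (log2 fold change 0.82, SE 0.18, edgeR adjusted p = 0.086). Cx3cr1, the fractalkine receptor of mature NK cells, had 14.6 against 27.5 CPM, 11.8 against 27.4 CPM and 19.7 against 80.1 CPM in that order (log2 fold change -1.30, SE 0.28, edgeR adjusted p = 0.064). Thy1, Ltb and Ctla2a had fold changes of 0.60, 0.95 and 0.57 and Ly6c2 one of -0.57 (edgeR adjusted p = 0.064 for each). Itgam, which encodes CD11b, was lower in each library (89.8 against 115, 66.1 against 101 and 131 against 193 CPM) with a log2 fold change of -0.47 (edgeR adjusted p = 0.22). Cells with an Itgam UMI made up 41.5% of CD27+ and 37.7% of CD27- cells in HDCA+CLP. They were 33.1% and 33.3% in CLP and 41.1% and 50% in Sham. Itgam or Klrg1 was found in 56.1%, 50% and 53.6% of CD27+ cells, in the order HDCA+CLP, CLP and Sham. The values in CD27- cells were 54.3%, 52.2% and 67.1%. Eomes and Tbx21, the T-box factors of the lineage, had log2 fold changes of 0.19 and -0.07 (edgeR adjusted p = 0.82 and 0.98).

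The number of calls was higher when dividing cells were left out. Without cells with at least 10 cell-cycle UMIs, an alternative chosen after seeing the data, 55 of 6780 genes were called higher (0.811%) and 31 lower (0.457%), among them the 5 called before. Of the less mature genes 7 of 14 then passed (Cd7, Ctla2a, Emb, Cxcr3, Ltb, Thy1 and Tcf7) and of the mature genes 3 of 16 (Zeb2, Ly6c2 and Cx3cr1). Ribosomal protein genes had 32 of 93 members called higher and none lower, with a median log2 fold change of 0.23. Lyz2, Hp and Ifitm3, genes of monocytes and granulocytes chosen here after their values were seen, were among those called lower, with log2 fold changes of -2.04, -1.73 and -1.71. Without the library as a block, no gene was called in either direction, with 37 higher and 46 lower at an unadjusted p under 0.05 in edgeR, and DESeq2 with the block called 37 higher and 3 lower, which shared 1 of the 5 calls, Ccl4. DESeq2 gave no adjusted p for Cd7, Zeb2, Saa3 and Cd74.

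**Figure D2:**
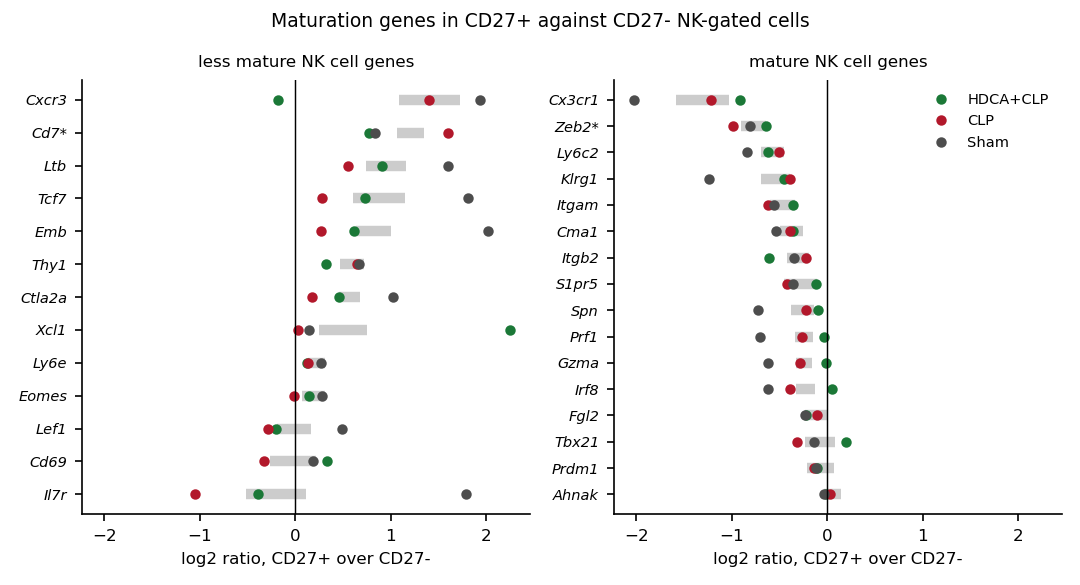
Log2 ratio of CPM in CD27+ over CD27- NK-gated cells for members of the less mature (left, without 1 that is not reported) and mature (right) gene lists; points are the 3 libraries, grey bars the edgeR log2 fold change ± SE, and asterisks mark calls at an adjusted p under 0.05. Most less mature genes lie right of 0 and most mature genes left of it, with Cd7 (1.21) and Zeb2 (-0.77) called.

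Between libraries, Gzmb, Gzma and Prf1 had higher levels in the CD27+ cells of CLP than in those of Sham. Of the 6361 genes with at least 20 UMIs over both libraries, 41.8% were higher and 58.2% lower in CLP, and 10.0% and 14.5% were higher and lower by over 2-fold. The median log2 ratio over all these genes was -0.16. With median-ratio size factors in place of total UMIs it was 0.10 and 55.5% of genes were higher, so small ratios have no fixed direction. Of the 19 cytotoxic effectors measured, 15 were higher and 4 lower, with a median log2 ratio of 0.85. This median was 0.31 to 0.64 under 8 alternatives and 1.12 with size factors. Leaving out cells with 5 or more monocyte UMIs gave 0.52. It removed only 1 CD27+ cell of CLP, with 47017 UMIs, 163 Lyz2 UMIs and no Ncr1 UMI, and none of Sham. Without this cell, Gzmb, Gzma and Prf1 stood at 3967, 20995 and 1378 CPM in CLP.

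Gzmb, which encodes granzyme B, the main apoptosis-inducing protease of the granules, stood at 5683 CPM in HDCA+CLP, 3835 CPM in CLP and 483 CPM in Sham. The log2 ratio of CLP over Sham was 2.99 [2.75, 3.24]. Gzma, another granzyme, stood at 24749, 20284 and 9493 CPM in that order (CLP over Sham 1.10 [1.04, 1.15]), and Prf1, which encodes the pore former perforin, at 1496, 1335 and 703 CPM (0.92 [0.72, 1.14]). Sham was lowest for each of the 3. Srgn, the proteoglycan that holds granzymes in the granule, had a ratio of 1.52 [1.24, 1.80], while Fasl, a death receptor ligand, stood at 159, 88.1 and 158 CPM (CLP over Sham -0.84 [-1.34, -0.32]). CD27- cells moved likewise, with 5322, 5056 and 996 CPM of Gzmb. The 300 bases around the start of Gzmb (chr14:56262285-56262584, minus strand, 250 bases before to 50 after the start, RefSeq on GRCm38.p6) are shown because this gene had the highest ratio among the effectors with UMIs in all 3 libraries. Capitals mark the letters TGTGGTT (RUNX) and TGANTCA (AP-1), searched on both strands.
Gzmb: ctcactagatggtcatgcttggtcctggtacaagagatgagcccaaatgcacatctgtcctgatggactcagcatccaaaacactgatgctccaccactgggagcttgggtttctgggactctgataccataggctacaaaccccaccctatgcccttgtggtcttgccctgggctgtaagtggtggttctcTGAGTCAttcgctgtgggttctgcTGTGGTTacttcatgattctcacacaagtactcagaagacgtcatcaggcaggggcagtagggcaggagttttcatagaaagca
TGTGGTT occurs in 5.27% and TGANTCA in 7.81% of 32817 RefSeq promoter windows of this length, and each occurs 1 time here. These are matches of letters, and no binding was measured.

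Ly6a, which encodes the interferon-induced surface protein Sca-1, was nearly absent from Sham. It stood at 570 CPM in HDCA+CLP, 495 CPM in CLP and 9.86 CPM in Sham, where 3 UMIs came from 1 cell (CLP over Sham 5.65 [4.10, 7.93]). Both CLP libraries were far above Sham, also in the CD27- cells (521, 362 and 1.05 CPM). Tnfrsf9, the costimulatory receptor 4-1BB, followed the same order, with 317, 257 and 16.4 CPM (3.96 [2.73, 5.60]). Among the 10 measured receptors of the inhibitory and checkpoint list, 7 were higher in CLP than in Sham and 3 lower, with a median of 2.70. Ctla4 had 24, 44 and 0 UMIs, at least 3.51-fold higher in CLP than in Sham when the Sham value is set to a floor of 3 counts, and the inhibitory leukocyte receptor Lilrb4a had 10, 31 and 0 UMIs, at least 2.47-fold higher. Pdcd1, which encodes PD-1, was at 0 UMIs in the CD27+ cells of all 3 libraries.

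Most cytokine and chemokine genes had higher levels in CLP (8 of 11 against Sham, median log2 ratio 1.14). Ccl4 stood at 357 CPM in HDCA+CLP, 585 CPM in CLP and 171 CPM in Sham (CLP over Sham 1.77 [1.37, 2.21]), and Ccl3 at 81.5, 232 and 82.2 CPM (1.50 [0.91, 2.15]). CLP was the highest of the 3 libraries for both chemokines. Il10, an anti-inflammatory cytokine, had 8, 33 and 0 UMIs, at least 2.63-fold higher in CLP. Ifng, the signature cytokine of NK cells, stood at 142, 160 and 135 CPM, and its ratio of 0.25 [-0.24, 0.77] was within counting error. Xcl1, a chemokine that attracts dendritic cells, was lower in CLP, with 58.5, 57.4 and 108 CPM (-0.92 [-1.53, -0.28]).

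Most genes of NK cell trafficking were lower in CLP than in Sham. Of 19 trafficking receptors and their regulators, 18 were lower, 10 of them by over 2-fold, with a median log2 ratio of -1.03. Over all genes, 58.2% were lower and 14.5% lower by over 2-fold. The list median was -0.76 with size factors, -0.76 thinned and -1.22 with 2 Cd27 UMIs. S1pr5, the receptor with which NK cells leave bone marrow and lymph nodes, stood at 29.2 CPM in HDCA+CLP, 29.9 CPM in CLP and 138 CPM in Sham (CLP over Sham -2.21 [-2.88, -1.54]). Cxcr4, the bone marrow homing receptor, stood at 31.3, 25.2 and 131 CPM (-2.38 [-3.10, -1.68]), and Klf2, a regulator of egress receptors, at 466, 431 and 986 CPM (-1.19 [-1.40, -0.99]). For these genes Sham was highest and the CLP libraries lay close together.

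Lineage transcription factors were lower in CLP for 14 of 21 members (median -0.79), beside 58.2% of all genes (median -0.16). Zeb2 stood at 73.1 CPM in HDCA+CLP, 59.0 CPM in CLP and 283 CPM in Sham (CLP over Sham -2.26 [-2.73, -1.80]). Eomes stood at 129, 104 and 385 CPM (-1.89 [-2.26, -1.52]), Tbx21 at 68.9, 51.9 and 115 CPM (-1.15 [-1.76, -0.51]) and Ets1, needed for NK cell development, at 562, 284 and 615 CPM (-1.11 [-1.37, -0.85]). Irf8 and Id2 were higher, with ratios of 0.85 [0.59, 1.13] and 0.49 [0.32, 0.66]. Mature and less mature genes were both mostly lower: 13 of 16 with a median of -0.72, and 11 of 14 with a median of -0.86. Maturation-list ratios therefore did not move in opposite directions between these libraries. Klrg1, with 83.5, 77.9 and 78.9 CPM, had a ratio of -0.02 [-0.67, 0.69].

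In the less mature list, 1 T cell UMI in a cell went with several values. Over all CD27+ cells Ltb, a lymphotoxin subunit, stood at 48.0, 57.4 and 118 CPM and Emb at 416, 234 and 332 CPM, in the order HDCA+CLP, CLP and Sham. In CD27+ cells without any UMI of the 4 T cell genes, Ltb stood at 50.2, 61.1 and 40.5 CPM and Emb at 438, 235 and 206 CPM, which turned the log2 ratio of CLP over Sham to 0.59 for Ltb and 0.19 for Emb. Il7r, the interleukin-7 receptor, stood at 41.8, 19.7 and 69.0 CPM and, without such cells, at 47.8, 17.2 and 20.2 CPM. In Sham, Il7r stood at 7.47% and Ltb at 12.0% of their levels in the highest other gate, and the part of free RNA was not tested. Zeb2 and Eomes kept their order in these cells, with 71.7, 55.3 and 320 CPM for Zeb2 and 127, 106 and 417 CPM for Eomes.

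Most NK receptor genes were also lower in CLP. Of 27 lectin-like and other NK receptors and their adaptors, 22 were lower (median -0.63), beside 58.2% of all genes. Klre1 stood at 357 CPM in HDCA+CLP, 359 CPM in CLP and 1035 CPM in Sham (CLP over Sham -1.53 [-1.74, -1.32]), and Klrc2, which encodes the activating receptor NKG2C, at 223, 214 and 628 CPM (-1.55 [-1.82, -1.28]). Klra7, a Ly49 receptor, went the other way at 608, 877 and 513 CPM (0.77 [0.53, 1.02]). Klra genes are close copies of each other, so their counts are uncertain. Cytokine receptors and signalling genes were nearer to the background, with 18 of 25 lower and a median of -0.42, which was -0.15 with size factors. Those lower included Il18r1, the receptor for interleukin-18, with 136, 98.4 and 329 CPM (-1.74 [-2.13, -1.35]), and Stat4, the transducer of interleukin-12, with 150, 91.3 and 312 CPM (-1.77 [-2.18, -1.37]).

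**Figure D3:**
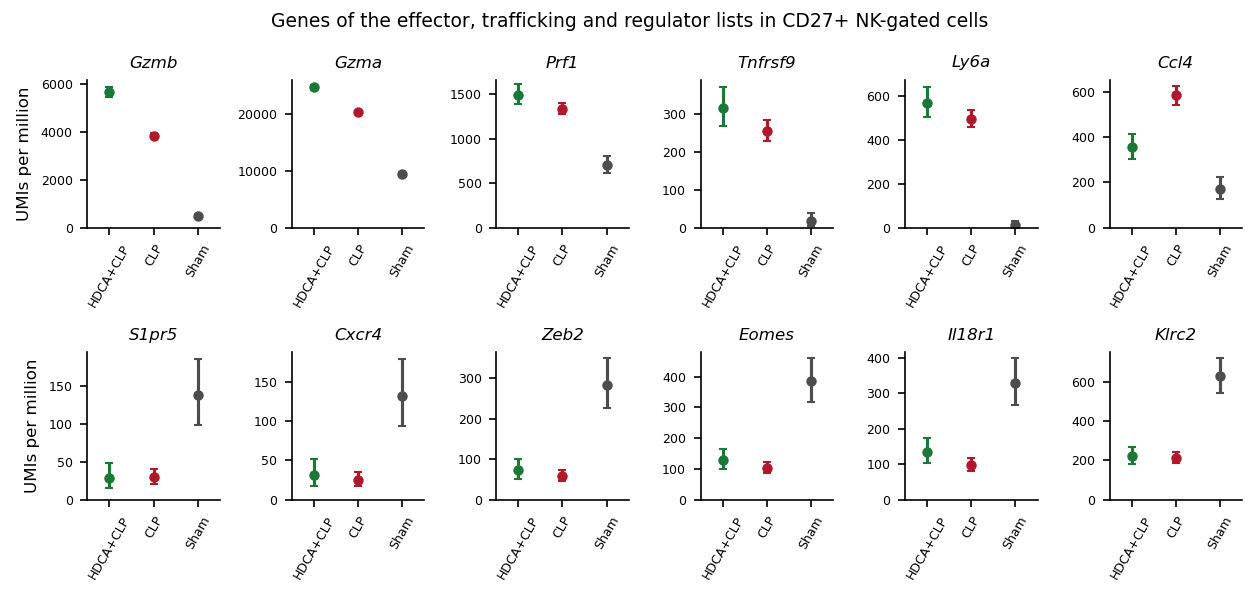
CPM of 12 genes in CD27+ NK-gated cells of the 3 libraries, on linear axes that start at 0, with exact Poisson 95% intervals. In the top row Sham is lowest (Gzmb 483 CPM against 5683 in HDCA+CLP and 3835 in CLP) and in the bottom row Sham is highest (Zeb2 283 CPM against 73.1 and 59.0).

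Interferon-response and growth genes were on the higher side in CLP against Sham. The counts below stand beside 41.8% of all genes higher and 58.2% lower. Among type I interferon responders 14 of 18 had a higher level (median 0.49), and among interferon-gamma responders 15 of 18 (median 0.63). Zbp1, a nucleic acid sensor, stood at 234 CPM in HDCA+CLP, 190 CPM in CLP and 36.2 CPM in Sham (CLP over Sham 2.39 [1.53, 3.41]), and Tap1, the peptide transporter of antigen presentation, at 219, 198 and 59.2 CPM (1.74 [1.05, 2.52]). Glycolysis genes were higher for 11 of 14 members (median 0.59), with Ldha at 411, 522 and 187 CPM (1.48 [1.09, 1.89]). Genes of amino acid and iron uptake with MYC targets were higher for 16 of 23 (median 0.62), with Odc1, the entry enzyme of polyamine synthesis, at 73.1, 113 and 23.0 CPM (2.30 [1.22, 3.64]). Cholesterol handling genes were lower for 9 of 13 (median -0.71). Among these, the sterol exporter Abcg1 had 1, 2 and 25 UMIs (CLP over Sham -5.71 [-8.83, -3.70]) and Mylip, which degrades the LDL receptor, stood at 29.2, 20.5 and 161 CPM (-2.98 [-3.72, -2.26]). Immediate early and glucocorticoid response genes were lower for 12 of 15 and 15 of 19 members, each with a median of -0.81. BCL2 family genes were split, 6 higher and 5 lower, with Bcl2 itself, which keeps NK cells alive, at 215, 234 and 585 CPM (-1.32 [-1.60, -1.05]).

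HDCA+CLP against CLP gave smaller ratios. Of 6511 genes with at least 20 UMIs, 52.7% were higher and 47.3% lower in HDCA+CLP, 3.73% and 5.77% by over 2-fold, and the median log2 ratio was 0.03. Transcription factors of the lineage were higher for 20 of 22 members (median 0.38), among them Ets1 with 562 CPM in HDCA+CLP and 284 CPM in CLP (0.98 [0.75, 1.22]) and Irf8 with 1366 and 773 CPM (0.82 [0.68, 0.97]). Cytokine receptors and signalling genes were higher for 20 of 25 (median 0.36), with Stat3 at 274 and 134 CPM (1.03 [0.69, 1.37]) and Ifngr1, the interferon-gamma receptor, at 1109 and 641 CPM (0.79 [0.63, 0.95]). The type I interferon list had 20 of 23 members on the higher side (median 0.45), with the restriction factor Trim30a at 196 and 95.2 CPM (1.04 [0.64, 1.44]). With all cells, the interval lay above 0 for 8 of 23 of these genes and 6 of 22 transcription factors, and below 0 for 0 of either. Over all 6511 genes it lay above 0 for 531 and below for 474. Without cycling cells, 16 of 18 type I interferon genes were higher, with a median of 0.29, and for transcription factors 16 of 21 with a median of 0.15. The share and median of all genes without cycling cells are not given here, so these medians have no background beside them.

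Of the effectors 14 of 19 were higher in HDCA+CLP than in CLP (median 0.17). Thinned to 2000 UMIs, which left 23 CD27+ cells in HDCA+CLP and 41 in CLP and 10 of these genes, the median was -0.10. Gzmb stood at 5683 CPM in HDCA+CLP against 3835 CPM in CLP (0.57 [0.50, 0.64]), while CD27- cells had 5322 and 5056 CPM, a ratio of 0.07. Ccl3 and Ccl4 were lower. Ccl3 stood at 81.5 against 232 CPM (-1.51 [-2.03, -1.03]) and Ccl4 at 357 against 585 CPM (-0.71 [-0.96, -0.47]), within a list of which 8 of 11 members were lower (median -0.26). Ccl5, the chemokine with the most UMIs, was higher, at 29875 against 24388 CPM (0.29 [0.26, 0.32]), and Xcl1 stood at 58.5 against 57.4 CPM. By the interval bound nearest to 0, the genes with the largest ratios among those higher in HDCA+CLP were Sult2b1, a sulfotransferase for sterols, at 71.0 against 13.4 CPM (2.41 [1.53, 3.34]), Satb1, a chromatin organiser, at 449 against 185 CPM (1.28 [1.01, 1.55]), and Dgat1, an enzyme of triglyceride synthesis, at 115 against 40.9 CPM (1.49 [0.92, 2.06]). Satb1 in Sham stood at 332 CPM, between the CLP libraries. Kctd12, P2ry10, Gimap8, Mxd1 and Rnf125 had ratios of 1.15 to 1.54. The bile acid receptor genes Gpbar1 and Nr1h4 were at 0 UMIs in the CD27+ cells of all 3 libraries. Genes of amino acid and iron uptake with MYC targets were lower for 20 of 24 (median -0.57), with Eif4a1 at 288 against 482 CPM (-0.74 [-1.02, -0.47]). CLP is the reference of this ratio and the first term of CLP over Sham, so the ratios share its cells.

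**Figure D4:**
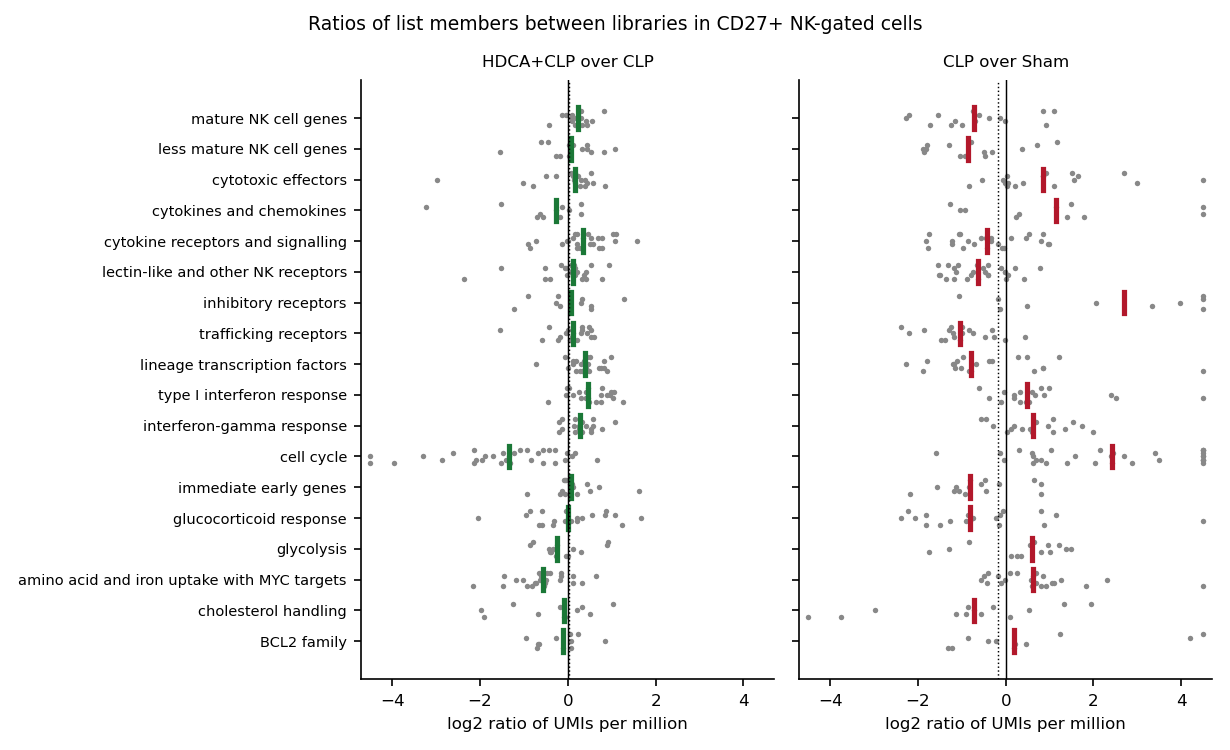
Log2 ratio of CPM for each measured member (grey points, at least 20 UMIs over both libraries) of 18 gene lists, for HDCA+CLP over CLP (left) and CLP over Sham (right); coloured bars are list medians, the dotted line the median of all genes, and points beyond 4.5 are drawn at the edge. The cell cycle list has medians of -1.34 on the left and 2.41 on the right, and the trafficking list lies at -1.03 on the right.

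Cell-cycle genes had their highest levels in the CD27+ cells of CLP. Of 32 measured cell-cycle genes, 29 were higher in CLP against Sham (median 2.41) and 29 were lower in HDCA+CLP against CLP (median -1.34). Top2a, which untangles replicated DNA, stood at 41.8 CPM in HDCA+CLP, 110 CPM in CLP and 9.86 CPM in Sham. Mki67, the classic proliferation marker, stood at 48.0, 120 and 16.4 CPM, and Birc5, which encodes the mitotic protein survivin, had 13, 112 and 0 UMIs. CLP was highest for each. Cells with at least 10 UMIs of the list, without its broadly used genes Stmn1, Tubb5, Hmgb2 and Pcna, numbered 3 of 82 (3.66% [0.761, 10.3]) in HDCA+CLP, 22 of 160 (13.8% [8.82, 20.1]) in CLP and 1 of 56 (1.79% [0.0452, 9.55]) in Sham, and 3, 9 and 1 cells lay within 3 UMIs of this limit. Thinned to 2000 UMIs, with a limit of 3 UMIs, the shares were 6.17%, 12.6% and 3.64%, with intervals that overlap. Of CD27- cells, 29 of 414, 62 of 831 and 1 of 210 passed the limit before thinning. In gated T cells the shares were 3.80%, 2.97% and 0.616%.

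Histone genes were the extreme of this pattern. Hist1h2ap had 5 UMIs in HDCA+CLP, 1330 in CLP and 19 in Sham (HDCA+CLP over CLP -6.65 [-8.27, -5.42]), Hist1h1b, a linker histone gene, had 6, 316 and 2 UMIs (-4.31 [-5.77, -3.17]) and Hist1h2ae had 2, 265 and 5 UMIs. Over 60 histone genes, CD27+ cells held 151, 3126 and 238 UMIs, and 9 cells of CLP accounted for 2724 of the 3126 (87.1%). The next highest cell of CLP held 22, and the median cell 1 in HDCA+CLP, 2 in CLP and 3 in Sham. The histone ratios therefore rest mostly on 9 cells. In CD27- cells Hist1h1b stood at 233, 170 and 51.6 CPM. Replication-dependent histone messages lack a poly(A) tail, many are near-identical copies, and a 3′ poly(A) assay captures them in part. The deepest CD27+ cell of CLP, with 47017 UMIs, was among these 9, held 445 histone UMIs and 163 UMIs of the monocyte gene Lyz2 and had no Ncr1 UMI. Without it, Hist1h2ap stood at 877 CPM in CLP and Hist1h1b at 225 CPM.

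The starts of the histone genes are shown because these genes moved together, again 250 bases before to 50 after the start, from RefSeq on GRCm38.p6. Hist1h1b, named H1f5 in RefSeq, lies at chr13:21780576-21780875 and Hist1h2ae, named H2ac8, at chr13:23571171-23571470, both on the minus strand. Capitals mark CCAAT on either strand and, in Hist1h1b, TGANTCA.
Hist1h1b: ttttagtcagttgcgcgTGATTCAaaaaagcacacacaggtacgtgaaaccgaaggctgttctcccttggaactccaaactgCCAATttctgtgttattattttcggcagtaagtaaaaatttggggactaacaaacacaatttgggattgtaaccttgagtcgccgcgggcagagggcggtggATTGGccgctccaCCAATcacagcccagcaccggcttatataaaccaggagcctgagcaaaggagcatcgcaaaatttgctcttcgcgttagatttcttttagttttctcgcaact
Hist1h2ae: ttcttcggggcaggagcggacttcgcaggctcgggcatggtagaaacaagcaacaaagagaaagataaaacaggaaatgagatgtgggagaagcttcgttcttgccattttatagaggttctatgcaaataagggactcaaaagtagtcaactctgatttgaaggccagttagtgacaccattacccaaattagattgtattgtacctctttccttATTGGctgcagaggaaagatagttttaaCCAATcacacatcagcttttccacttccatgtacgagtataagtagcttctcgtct
CCAAT occurs 3 times in the Hist1h1b window and 2 times in that of Hist1h2ae, and in 37.4% of all 32817 windows at least once. The Gzmb window has none, and no match says no more than that these letters are absent from it.

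**Figure D5:**
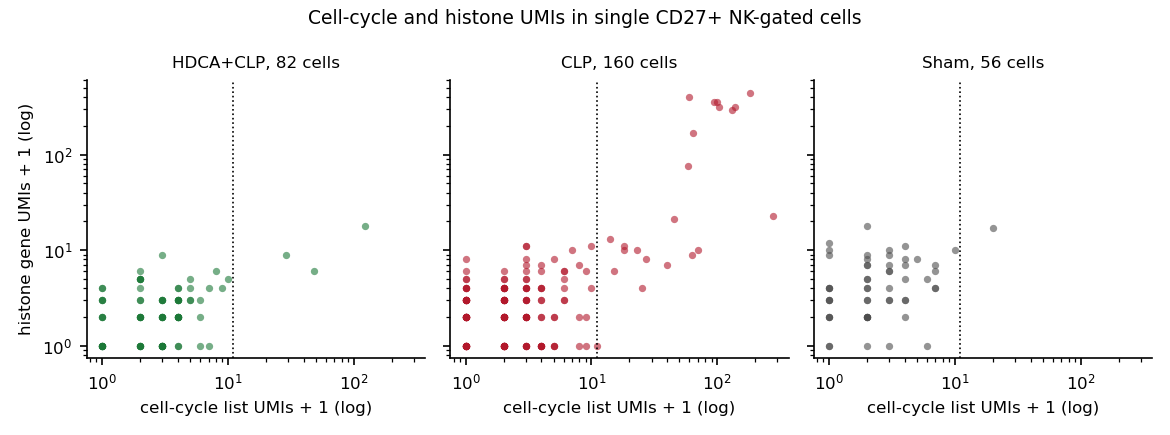
Cell-cycle list UMIs (x axis, log scale, plus 1) and histone gene UMIs (y axis, log scale, plus 1) of each CD27+ NK-gated cell, 1 panel for each library; the dotted line marks 10 cell-cycle UMIs. In CLP 9 cells lie at 50 or more histone UMIs, and no cell of HDCA+CLP or Sham does.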

How the data were processed

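Cells of 3 blood libraries, 1 for each of the groups HDCA+CLP, CLP and Sham, were read with a 10x 3′ assay. Per the file headers, the authors' deposited matrices hold UMI counts per gene and cell from Cell Ranger 5.0.1. The build mm39 and the tools R 4.0.3 and Seurat 4.0.6 are listed, with no step, per the submitters' processing notes. CPM values were computed here by dividing summed counts by all UMIs of the same cells. Gates used raw counts as given in the results. Doublets were scored with simulated pairs (scikit-learn 1.9.0) and kept, with their removal as an alternative.

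Differences between libraries are log2 ratios with exact binomial 95% intervals, shares have Clopper-Pearson intervals, and levels have exact Poisson intervals, all for counting error only. A value of 0 was set to a floor of 3 counts per library for bounds. CD27+ and CD27- sums were compared with edgeR 4.0.16 (quasi-likelihood test, TMM, filterByExpr), with the library as a block, which pairs the states because both come from the same library. This left 2 residual degrees of freedom, and the test moderates the spread of each gene with information pooled over genes. The p-values rest on this moderated spread between 3 libraries of different treatment. A small p-value does not require the same direction in each library, and Saa3 was called although its direction differed. In data simulated for this comparison, 58.2% of genes changed 2-fold and 99.0% of genes changed 4-fold were recovered. The changed genes were drawn only from those with higher UMI sums, and the simulated spread was a fixed value not estimated from these data. These percentages therefore do not describe genes with few UMIs or the real spread.

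The rule, the 18 gene lists and the fixed genes were chosen with earlier results of these data known, and 4 list genes were not matched in the files. Between libraries, the named genes were the 8 with the largest ratio in each direction by the interval bound nearest to 0, with at least 30 UMIs and 50 CPM. Up to 3 members at each end of a list and a set of fixed genes were added. Genes under 20% of their level in another gate were left out of these choices, apart from the fixed genes. Alternatives changed the mitochondrial, T cell, B cell, NK and Cd27 limits, depth, normalization, low-count filter, tool (DESeq2 1.42.0) and libraries. Leaving out cycling cells or cells with monocyte UMIs was added after seeing the data. Results for some members of the lists are not reported here, though list counts and medians include them.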

Additional observations from a re-analysis of the deposited data

Results flagged for a closer look

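Several ratios had opposite signs in CD27+ and CD27- NK-gated cells, which flagged them; the difference between the states was not tested for any of them. For HDCA+CLP over CLP, the log2 ratio of Hist1h1b was -4.31 in CD27+ and 0.46 in CD27- cells, and that of Hist1h3c was -3.27 in CD27+ and 0.55 in CD27- cells. Cd7 had ratios of -0.45 in CD27+ and 0.37 in CD27- cells. Socs3, a feedback inhibitor of cytokine signalling, had 1.10 in CD27+ and -0.26 in CD27- cells, and Prf1 had 0.16 in CD27+ and -0.06 in CD27- cells. For CLP over Sham, Emb had -0.50 in CD27+ and 1.25 in CD27- cells, and Il7r had -1.81 in CD27+ and 1.02 in CD27- cells.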

How the results depend on the processing

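No paired analysis was possible between groups because 1 library stands for each group; the library block pairs only CD27+ with CD27- cells. Requiring 2 Cd27 UMIs gave CD27+ shares of NK-gated cells of 2.82%, 3.33% and 7.52% in HDCA+CLP, CLP and Sham and of kept cells of 0.116%, 0.304% and 0.290%. Thinning gave 6.48%, 5.39% and 13.7%, and 0.196%, 0.391% and 0.505%. The share of kept cells was 1.21% in Sham under a 5% mitochondrial limit and 1.22% in CLP without cells with a T cell UMI.

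For CLP over Sham, the median of cytotoxic effectors was 0.50 without T cell UMIs, 0.64 with 3 NK UMIs, 0.52 with 2 Cd27 UMIs, 0.54 thinned, 0.55 without cycling cells, 0.52 without cells with monocyte UMIs, 1.12 with size factors, 0.54 as a mean over cells and 0.31 for genes with 100 UMIs. The trafficking median was -1.22 with 2 Cd27 UMIs, -0.76 thinned and -0.76 with size factors. The cell cycle median was 2.94 without T cell UMIs, 1.26 with 2 Cd27 UMIs, 1.46 as a mean over cells, 0.38 thinned and -0.23 without cycling cells. For HDCA+CLP over CLP it was -1.83 with 2 Cd27 UMIs, -0.74 as a mean over cells, and turned to 0.60 thinned and 0.44 without cycling cells. Both thinned cell cycle medians rest on 2 of 32 genes and do not describe the list, and leaving out cycling cells removes UMIs of this same list by construction. Leaving out cells with monocyte UMIs removed only 1 CD27+ cell, the deepest of CLP. The cause was not tested for the other changes.

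Signs also turned for CLP over Sham in Emb (0.19) and Ltb (0.59) without T cell UMIs, Xcl1 (0.74) with 2 Cd27 UMIs, the type I interferon value (-0.91) thinned, where 1 of 18 genes was left, Hist1h2ap (-2.44) without cycling cells and the median of all genes (0.10) with size factors. For HDCA+CLP over CLP they turned in Emb (-0.23) and Il18r1 (-0.31) with 2 Cd27 UMIs. Thinned, they turned in the medians of cytotoxic effectors (-0.10) and NK receptors (-0.10), Gzma (-0.075), Il18r1 (-0.75), Klra7 (0.018), Prf1 (-0.19) and Tnfrsf9 (-0.17). Without cycling cells they turned in the NK receptor median (-0.024), Ccl5 (-0.0033), Prf1 (-0.022) and Stmn1 (1.23).

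For CD27+ over CD27- cells, genes called higher and lower numbered 11 and 13 under the 5% mitochondrial limit, 3 and 3 without doublets, 13 and 9 without T cell UMIs, 2 and 5 without B cell UMIs, 6 and 7 with 3 NK UMIs, 6 and 10 with 2 Cd27 UMIs, 1 and 1 thinned, 55 and 31 without cycling cells, 16 and 7 without cells with monocyte UMIs, 8 and 9 with RLE, 23 and 31 with no low-count filter, and 37 and 3 with DESeq2, which gave 6973 genes no adjusted p. With no replicate block edgeR called 0 and 0 (37 and 46 at an unadjusted p under 0.05). Leaving out 1 library in turn gave 5 to 12 higher (5 without Sham, 9 without CLP, 12 without HDCA+CLP) and 7 to 16 lower (7 without Sham, 16 without CLP, 15 without HDCA+CLP). Signs turned for Zeb2 (0.019) and Saa3 (0.25) thinned, Saa3 (1.42) without doublets and Cd74 (0.17) without cells with monocyte UMIs. With 56 CD27+ cells, Sham limits the precision of each ratio against it.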
